A study of Homo sapiens with 4 samples.

Results

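RNA levels of 10 genes of the WNT pathway were compared between PANC-1 cells and the H2A.Z knockdown clone PZT-2. The 10 genes were taken by symbol and cover 4 receptors (RYK, FZD2, FZD6 and FZD7), 2 co-receptors (LRP5 and LRP6), 1 ligand (WNT7B), 2 secreted inhibitors (DKK1 and DKK3) and 1 intracellular inhibitor (AXIN2). They are 10 of the 15221 genes with values, and all 10 had enough counts to be tested. PANC-1 is an established line of human pancreatic adenocarcinoma, used here without any modification. PZT-2 is a single clone of PANC-1 that was selected with puromycin. It carries lentiviral shRNAs, driven by the U6 promoter, against the 3 isoforms of the histone variant H2A.Z. H2A.Z.1 comes from the gene H2AFZ, and both H2A.Z.2 isoforms come from H2AFV. Each cell line was measured in 2 stranded mRNA libraries, both lines were grown in DMEM with serum and the labels give them the same passage range. No library of cells with a control shRNA is used here, so the knockdown, the vector, the selection and the choice of 1 clone cannot be told apart.

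WNT ligands are secreted, lipid-modified proteins that bind Frizzled receptors (the FZD genes) at the cell surface. When the co-receptors LRP5 or LRP6 join the complex, the cytoplasmic destruction complex, built on an AXIN scaffold, stops degrading β-catenin, which then acts in the nucleus together with TCF and LEF factors. RYK and ROR proteins are receptors that can pass a WNT signal without β-catenin, and DKK1 blocks the pathway by binding LRP5 and LRP6. Signaling through WNT and β-catenin is active during development of the pancreas and is altered in many digestive tumors.

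Values are given as normalized counts, which are estimated read counts summed over the transcripts of a gene, divided by the effective size of the library and scaled to the mean library. The 4 libraries held between 12856519 and 15713305 counts. A gene was called when its Benjamini-Hochberg adjusted p in the quasi-likelihood test of edgeR, over 15101 genes, was below 0.05. Every log2 fold change is PZT-2 against PANC-1. The study calls the replicates biological, but neither it nor the labels say whether they are separate cultures, so these p-values measure the spread between the libraries at hand. An exact permutation test of a single gene (two-sided, 2 libraries a line) can reach no p smaller than 0.333. In bulk libraries, fewer cells that express a gene and less RNA per cell cannot be told apart.

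The targeted genes were lower in both libraries labelled PZT-2. H2AFZ had 6385 and 6030 normalized counts in PANC-1 and 2211 and 2256 in the KD clone (log2 fold change -1.47, edgeR adjusted p = 6.33e-05). H2AFV had 3341 and 3450 in PANC-1 and 2588 and 2716 in the KD clone (log2 fold change -0.36, edgeR adjusted p = 0.00570), a call lost without PZT-2 replicate 1 (adjusted p = 0.0572) and with its most abundant transcript alone (0.0689). The keratins KRT8, KRT18 and KRT19 were high in all libraries. KRT7 and EPCAM of the same list were low, with 103 to 127 and 83 to 116 counts, and CDH1 had 102 and 164 counts in PANC-1 and 0 and 19 in PZT-2. Summed over the 6 epithelial markers, the level per transcript length, in TPM, was 7224 to 7248 in PANC-1 and 3745 to 3817 in PZT-2. Of the 6 markers, 4 were called lower, against 13.7% of all genes. Of 7 fibroblast markers 5 had no value, among them COL1A2, DCN and PDGFRA, and the list summed to 10.7 to 11.6 TPM in PANC-1 and 3.14 to 3.94 in PZT-2. COL1A1 held most of this sum, with 439 and 588 counts in PANC-1 and 169 and 137 in PZT-2, and was called lower (edgeR adjusted p = 4.67e-04). PDGFRB had 8 to 15 counts and was not called. PTPRC and CD3E of 4 immune markers and VWF and CDH5 of 3 endothelial markers had no value, and the summed lists reached 114 to 121 TPM in PANC-1 and 118 to 123 in PZT-2 for the immune list, where CD68 held most while CD14 was called higher (3 and 0 counts in PANC-1, 16 and 32 in PZT-2), and at most 0.236 TPM for the endothelial list. CD14 reached the 5 counts needed in 2 libraries only through PZT-2, where it was high, so its call is not support for a rise. A missing value means that no transcript of the gene is in the count table. The part of the fall in epithelial markers in the results below was not tested. Between replicates the squared difference of a gene was 2.91 times (PANC-1) and 2.13 times (PZT-2) what counting alone gives at the median gene, and 6.24 and 3.52 times in the mean over genes, so none was treated as a repeat of another.

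Of the 10 WNT genes, RYK was called higher in PZT-2, and FZD2, FZD6, FZD7 and DKK1 were called lower. LRP5, LRP6, WNT7B, DKK3 and AXIN2 did not pass. Across all genes 28.4% were called, 14.7% higher and 13.7% lower, so the 5 of 10 genes called here stand against a background in which calls were common. The 10 genes were chosen with earlier results of these data known, so this comparison is a description and not a test. The median log2 fold change of the 10 genes was -0.32, and that of all genes tested was 9.02e-04. The libraries of the cell lines did not overlap for 9 of the 10 genes, which was also true of 66.3% of all genes. The exception was WNT7B.

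RYK encodes a receptor with an extracellular WNT-binding domain and a kinase-like domain that lacks catalytic activity. It rose 1.60-fold in the KD clone. The normalized counts were 1288 and 1315 in PANC-1 and 2059 and 2108 in PZT-2, so both PZT-2 libraries lay far above both PANC-1 libraries. The log2 fold change was 0.68 (standard error 0.0579, 95% interval 0.54 to 0.82, edgeR adjusted p = 7.33e-04). The gene stayed called under each of the 15 alternative settings, with log2 fold changes between 0.46 and 0.70. RYK is also a gene that the study picked from these libraries, so its call is not independent evidence.

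RYK was quantified as 2 RefSeq transcripts, NM_001005861 and NM_002958. In GENCODE 29 their coding sequences differ by 9 bases in frame, present in NM_001005861 at the start of exon 8 (GRCh38, chr3:134191975-134191983, minus strand) and absent from NM_002958. The stretch around this difference, from base 866 of either coding sequence, is printed because these few bases separate the isoforms, with the extra bases in capitals.
NM_001005861: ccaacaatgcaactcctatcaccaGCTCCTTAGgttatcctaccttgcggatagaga
NM_002958: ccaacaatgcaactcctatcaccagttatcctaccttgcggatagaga
The longer form, NM_001005861, had 844 and 964 normalized counts in PANC-1 and 1252.5 and 1225 in PZT-2. The shorter form, NM_002958, had 443 and 358 in PANC-1 and 803 and 878 in PZT-2. For both isoforms the PZT-2 libraries lay above the PANC-1 libraries. The log2 fold change was 0.45 for the longer form (standard error 0.0860, adjusted p = 0.120) and 1.07 for the shorter (standard error 0.139, adjusted p = 0.0870), and neither passed edgeR's test over all transcripts. Of the 10 alternatives run for transcripts, 1 called the shorter form, the minimum of 10 counts in every library (adjusted p = 0.0276). The shorter form held 34.4% and 27.1% of the RYK counts in PANC-1 and 39.1% and 41.8% in PZT-2. These shares do not overlap, but the difference in shares was not tested, and the split of reads between the isoforms is an estimate of kallisto.

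The Frizzled receptors moved the other way. FZD2, FZD6 and FZD7 encode seven-pass membrane proteins with a cysteine-rich WNT-binding domain, and all 3 were called lower in PZT-2. FZD2 fell most. It had 606 and 617 normalized counts in PANC-1 and 276 and 238 in PZT-2, which is well below either PANC-1 library. Its log2 fold change was -1.25 (standard error 0.0989, edgeR adjusted p = 5.56e-04), a level 0.420 times that of PANC-1, and it stayed called under all 15 alternatives, between -1.36 and -1.15. Only 6.06% of all tested genes had a change at least as large in either direction.

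FZD7 had 837 and 921 normalized counts in PANC-1 and 648 and 637 in PZT-2. The libraries did not overlap, and the log2 fold change was -0.45 (standard error 0.0773, edgeR adjusted p = 0.00720). The FZD7 call was lost without PZT-2 replicate 2 (adjusted p = 0.0537, the highest among the alternatives, the lowest being 0.00132). FZD6 had 317 and 297 normalized counts in PANC-1 and 208 and 230 in PZT-2, again without overlap. Its log2 fold change was -0.48 (standard error 0.108, edgeR adjusted p = 0.0184). The FZD6 call was lost with DESeq2 (adjusted p = 0.0711), with the most abundant transcript alone (0.0977), and on leaving out either replicate of PZT-2 (0.111 for the first, 0.0613 for the second), and the lowest adjusted p among the alternatives was 0.0125. Most FZD6 counts came from NM_003506, with 279 and 269 normalized counts in PANC-1 and 197 and 214 in PZT-2. The non-coding transcript NR_133921 of FZD6 had 38.2 and 30.0 in PANC-1 and 11.0 and 15.8 in PZT-2. Neither FZD6 transcript passed by itself (adjusted p = 0.226 and 0.356, edgeR).

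LRP5 and LRP6 encode the paired co-receptors that Frizzled complexes need for signaling to β-catenin. LRP5 had 5617 and 5905 normalized counts in PANC-1 and 6587 and 6222 in PZT-2, so its PZT-2 libraries lay above the others by a small step. The log2 fold change of 0.15 did not pass (95% interval 0.02 to 0.29, edgeR adjusted p = 0.0878). Without PANC-1 replicate 2 it was called (log2 fold change 0.18, edgeR adjusted p = 0.0349), and the alternatives spanned adjusted p values from 0.0349 to 0.421. LRP6 had 298 and 302 normalized counts in PANC-1 and 348 and 351 in PZT-2, tight pairs that did not overlap. Its log2 fold change of 0.22 did not pass either (95% interval 0.0071 to 0.43, edgeR adjusted p = 0.114), and it passed under none of the 15 alternatives. Per transcript length LRP5 was by far the more abundant co-receptor, with 97.4% ± 0.0679 of the summed TPM of the pair in PANC-1 and 97.3% ± 0.119 in the KD clone (SD, n = 2 each).

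WNT7B, a ligand found in ductal epithelia, was the most abundant WNT ligand in both lines. It had 3055 and 3449 normalized counts in PANC-1 and 3051 and 3068 in PZT-2. PANC-1 replicate 1 lay inside the range of the PZT-2 libraries, and PANC-1 replicate 2 stood above them. The log2 fold change was -0.09 and did not pass (95% interval -0.26 to 0.08, edgeR adjusted p = 0.402). Without PANC-1 replicate 1 it was called, at -0.18 (edgeR adjusted p = 0.0340), and without PANC-1 replicate 2 it was -0.0055, with the adjusted p between 0.0340 and 0.956 over all alternatives.

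**Figure D1:**
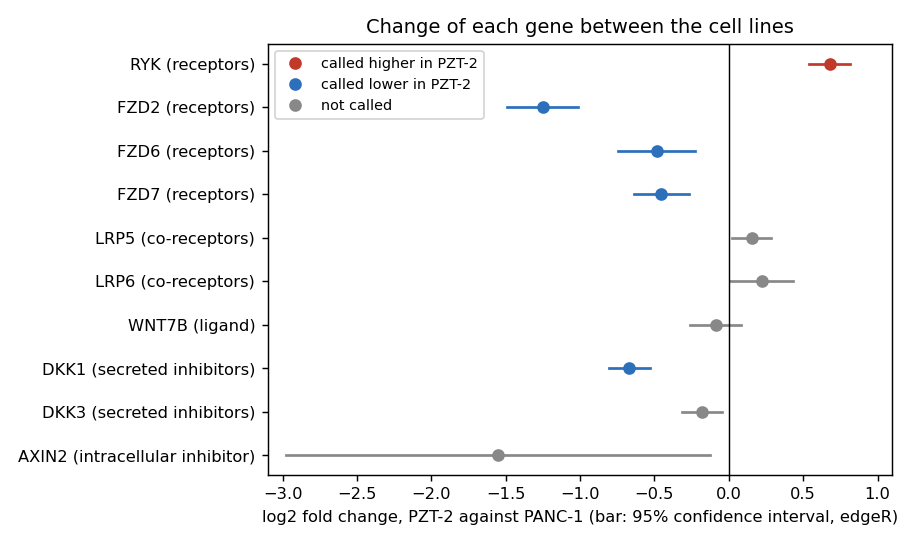
Log2 fold change of PZT-2 against PANC-1 for each of the 10 WNT genes, with the 95% confidence interval of the edgeR fit as a bar. Red marks the gene called higher, blue the genes called lower and gray those not called, and RYK (0.68) is the 1 called gene on the right while FZD2 (-1.25) lies farthest left among called genes.

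DKK1, the secreted antagonist that removes LRP5 and LRP6 from the receptor complex, was the most abundant of the 10 genes per length and was lower in the KD clone. It had 6253 and 5876 normalized counts in PANC-1 and 3724 and 3908 in PZT-2. The higher PZT-2 library was still far under the lower PANC-1 library. The log2 fold change was -0.67 (standard error 0.0579, edgeR adjusted p = 7.60e-04), so that the level fell by 37.1%, and the gene stayed called under all 15 alternatives, between -0.72 and -0.63.

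DKK1 is itself known as a target of β-catenin and TCF factors. The 250 bases before its start in RefSeq (GRCh38.p14, chr10:52314031-52314280, plus strand) are printed to show letters of the TCF/LEF kind, with matches in capitals.
DKK1: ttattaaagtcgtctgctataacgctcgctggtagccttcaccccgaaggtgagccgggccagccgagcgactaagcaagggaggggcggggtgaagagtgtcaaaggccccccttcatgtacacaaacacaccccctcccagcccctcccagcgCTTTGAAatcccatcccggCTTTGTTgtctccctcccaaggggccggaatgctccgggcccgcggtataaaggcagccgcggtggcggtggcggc
The letters searched were CTTTG followed by a pair of bases that are each A or T, on both strands. The window holds 2 matches, CTTTGAA starting 95 bases and CTTTGTT starting 76 bases before the transcription start. At least 1 match was present in 11.96% of 35116 RefSeq promoter windows of the same length. The windows of RYK and LRP5, the other members with an entry, held 0 matches. Their share of G and C was 72% and 87.2%, against 62.8% for DKK1 and a median of 58% over all windows. A match is a description of letters, binding was not measured here, and a part of the matches in the fall of DKK1 was not tested.

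DKK3 belongs to the same secreted family but does not act on LRP5 and LRP6 in the way DKK1 does. As a sum over its transcripts it had 3238 and 3086 normalized counts in PANC-1 and 2758 and 2810 in PZT-2. The libraries did not overlap, yet the log2 fold change of -0.18 just missed the threshold (standard error 0.0559, edgeR adjusted p = 0.0523). DKK3 was the least settled call of the 10 genes. It passed with RLE size factors (adjusted p = 0.0499), the version 4 estimate of edgeR (0.0460), at least 10 counts in every library (0.0405), DESeq2 (0.0475), limma-trend on log2(TPM + 1) or log2(TPM + 0.1) (0.0333 and 0.0352) and without PANC-1 replicate 2 (0.0125). With its most abundant transcript alone the sign turned to 0.47 (edgeR adjusted p = 0.0635).

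The split of DKK3 reads between transcripts is also an estimate of kallisto. By this estimate the 4 transcripts of DKK3 did not all move in the same direction, and none was called. In GENCODE 29, NM_001018057 and NM_013253 have the same coding sequence of 1050 bases and begin 288 bases apart, at 12009082 and 12009370 on the minus strand of chromosome 11 (GRCh38). There NM_015881 is matched to the same transcript as NM_001018057, and NM_001330220 to none. NM_001018057 had 1764 and 1328 normalized counts in PANC-1 and 808 and 596 in PZT-2, lower in both PZT-2 libraries. NM_013253 had 1247 and 1503 in PANC-1 and 1788 and 2008 in PZT-2, higher in both. The minor transcript NM_001330220 had 133 and 134 in PANC-1 and 91.4 and 80.8 in PZT-2, and NM_015881 had 92.2 and 136 in PANC-1 and 66.3 and 117 in PZT-2, where the lines overlap.

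As a share of DKK3 counts, NM_001018057 went from 54.5% and 42.8% in PANC-1 to 29.3% and 21.3% in PZT-2. NM_013253 went from 38.5% and 48.4% to 64.9% and 71.7%. The main DKK3 transcript in PANC-1 replicate 1 was thus NM_001018057, and in the other 3 libraries it was NM_013253. The log2 fold change was -1.14 (standard error 0.228, edgeR adjusted p = 0.127) for NM_001018057 and 0.46 (standard error 0.124, adjusted p = 0.179) for NM_013253. None of the 4 DKK3 transcripts passed edgeR's test over 30403 transcripts, nor under any of the 10 alternatives run for transcripts, limma-trend on log2(TPM + 1) among them. At an unadjusted p below 0.05, NM_001018057 and NM_013253 were 2 of the 4 transcripts. The test by transcript called 0.148% of all transcripts in edgeR, while 18.5% had an unadjusted p below 0.05. Across the 16 transcripts of the 10 genes that were tested, 0 were called and 8 had an unadjusted p below 0.05.

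AXIN2, a scaffold of the destruction complex and a widely used target gene of β-catenin, was close to the limit of detection. It had 13 and 23 estimated counts in PANC-1 and 9 and 3 in PZT-2, or 14.6, 20.8, 9.06 and 2.96 normalized counts. The PZT-2 libraries lay lower, but the log2 fold change of -1.55 did not pass (standard error 0.592, edgeR adjusted p = 0.0990), and it passed under none of the 14 alternatives that kept the gene (adjusted p from 0.0608 to 0.729). The value turned on single libraries of PZT-2, being -2.54 when replicate 1 of that clone was left out and -0.97 when replicate 2 was. The ratio of the summed counts per library size was 0.339, with an exact 95% interval from 0.160 to 0.666 that covers counting error only. The counts of AXIN2 also changed transcript between replicates. NM_004655 had 0 and 21 counts in PANC-1 and 9 and 0 in PZT-2, and NM_001363813 had 13 and 2 in PANC-1 and 0 and 3 in PZT-2.

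Levels were compared between genes only per transcript length, as deposited TPM. In PANC-1 the order was DKK1 (426 ± 16.7 TPM, SD, n = 2), DKK3 (155 ± 5.56), LRP5 (142 ± 5.43), WNT7B (106 ± 9.45), RYK (57.7 ± 1.06), FZD7 (29.4 ± 2.10), FZD2 (20.5 ± 0.317), FZD6 (10.4 ± 0.453), LRP6 (3.73 ± 0.0411) and AXIN2 (0.545 ± 0.119). In PZT-2 it was DKK1 (266 ± 8.75 TPM, SD, n = 2), LRP5 (156 ± 6.57), DKK3 (133 ± 0.986), WNT7B (99.2 ± 0.224), RYK (91.6 ± 1.39), FZD7 (21.3 ± 0.29), FZD2 (8.54 ± 0.911), FZD6 (7.38 ± 0.505), LRP6 (4.30 ± 0.0148) and AXIN2 (0.181 ± 0.125). DKK3 and LRP5 exchanged places between the lines, and RYK moved close to WNT7B. No neighbours in either order overlapped between their 2 libraries, although FZD2 and FZD6 came near each other in PZT-2, where the lower FZD2 library had 7.90 TPM and the higher FZD6 library 7.74.

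The 9 Frizzled genes with values together had 72.3 and 76.3 TPM in PANC-1 and 47.4 and 47.3 in PZT-2. FZD7 held the largest part in both lines, with 38.5% and 40.5% of this sum in PANC-1 and 45.3% and 44.5% in PZT-2. The share of FZD2 was 28.1% and 27.2% in PANC-1 and 19.4% and 16.7% in PZT-2, whereas that of FZD6 overlapped between the lines. Among 12 WNT ligand genes with values, WNT7B held 63.2% and 66.1% of the summed TPM in PANC-1 and 77.1% and 77.4% in PZT-2, while the sum itself was 158 and 171 in PANC-1 and 128 in each PZT-2 library. DKK1 made up 73.4% and 73.3% of the TPM of DKK1 and DKK3 in PANC-1 and 66.2% and 67.0% in PZT-2. These shares are descriptions of 2 libraries a line and were not tested.

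The other genes of the pathway were read from a list of 81 genes in 8 roles, of which 54 had values and were tested. Of these, 9 were called higher and 12 lower (38.9%, against 28.4% of all genes), and their median log2 fold change was -0.08. The list was chosen with earlier results of these data known, so this share and those by role below are descriptions. All calls among the ligands and the machinery that modifies and releases them were downward, all calls among the secreted and membrane inhibitors of the list were upward, and calls in the destruction complex went both ways.

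Of 18 other WNT ligands, 11 had values, 4 were called lower and 0 higher in edgeR (36.4%, against 28.4% of all genes). An unadjusted p below 0.05 in edgeR was reached by 4, and the share of all genes at that limit was not computed. WNT9A fell from 476 and 538 normalized counts in PANC-1 to 145 and 164 in PZT-2 (log2 fold change -1.72, edgeR adjusted p = 3.74e-04). WNT5B, a ligand mostly linked to signaling without β-catenin, fell from 479 and 426 to 235 and 224 (log2 fold change -0.98, edgeR adjusted p = 0.00141). WNT10A and WNT5A, the other 2, had log2 fold changes of -1.23 and -2.08. WNT5A had at most 31.5 normalized counts in any library. The WNT5A call was lost with DESeq2 (adjusted p = 0.0585) and with its most abundant transcript alone (edgeR adjusted p = 0.295). It was also lost when PZT-2 replicate 1 was left out (log2 fold change -1.63). WNT1, WNT2, WNT3A, WNT7A, WNT8A, WNT8B and WNT16 had no value.

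Ligands are acylated with a monounsaturated fatty acid that SCD helps to make, by the acyltransferase PORCN, and carried to the surface by WLS. SCD, also picked by the study from these libraries, went from 21127 and 15706 normalized counts in PANC-1 to 714 and 668 in PZT-2 (log2 fold change -4.74, edgeR adjusted p = 6.10e-05). WLS went from 537 and 486 to 47.3 and 50.4, a log2 fold change of -3.38 (edgeR adjusted p = 6.33e-05). The PZT-2 level was 0.0375 times that of PANC-1 for SCD and 0.0959 times for WLS. PORCN and the ligand deacylase NOTUM were not called (edgeR adjusted p = 0.222 and 0.637).

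Of 10 other receptors and co-receptors, 9 had values, 2 were called lower and 0 higher in edgeR (22.2%, against 28.4% of all genes). An unadjusted p below 0.05 in edgeR was reached by 4 of the 9, and by at least 5925 of all 15101 genes. ROR2, a receptor tyrosine kinase for WNT5A, is named after its values were seen, since its level is below the minimum set for naming. It had 68.6 and 95.8 normalized counts in PANC-1 and 7.04 and 5.93 in PZT-2 (log2 fold change -3.65, edgeR adjusted p = 9.52e-04). FZD9 was the other called gene, with -0.91 (edgeR adjusted p = 0.0235). The remaining Frizzled genes with values, FZD1, FZD3, FZD4, FZD5 and FZD8, were not called, and FZD10 had no value. ROR1 and PTK7 of the same role, also named after their values were seen, were not called either. ROR1 had 450 and 499 normalized counts in PANC-1 and 463 and 454 in PZT-2 (log2 fold change -0.05, edgeR adjusted p = 0.715). PTK7 had a log2 fold change of 0.0083 (edgeR adjusted p = 0.947). Per transcript length ROR1 lay above ROR2 in every library, so the fall of ROR2 does not stand for ROR1. Of 7 genes for R-spondins and their receptors only LGR4 had a value, and it fell by 0.29 on the log2 scale (edgeR adjusted p = 0.0232), from 744 and 754 normalized counts to 621 and 602. The LGR4 call was lost under 6 of 15 alternatives. These were DESeq2 (adjusted p = 0.0818), limma-trend on log2(TPM + 1) and log2(TPM + 0.1) (0.0539 and 0.0509), its most abundant transcript alone (edgeR, 0.0670) and either PZT-2 library left out (log2 fold change -0.32 and -0.27). The FZD9 call was lost under 5 of 15. These were DESeq2 (adjusted p = 0.109), its most abundant transcript alone (edgeR, 0.0821), either PZT-2 library left out (log2 fold change -0.76 and -1.07) and PANC-1 replicate 2 left out (-0.84).

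Of 15 other secreted or membrane inhibitors listed, only 4 had values. SFRP1, KREMEN1 and KREMEN2 were called higher, which is 75% of these 4, against 14.7% of all genes. The member DKK1, also a secreted inhibitor, was called lower. KREMEN1 lost its call with its most abundant transcript alone (edgeR adjusted p = 0.0649). SFRP1, a secreted protein that binds WNT ligands, rose from 942 and 1078 normalized counts to 1978 and 2095 (log2 fold change 1.01, edgeR adjusted p = 6.16e-04). KREMEN2, a membrane receptor for DKK1, rose from 236 and 218 to 332 and 328 (log2 fold change 0.54, edgeR adjusted p = 0.00947). KREMEN2 was not called with its most abundant transcript alone (edgeR adjusted p = 0.541) or on leaving out either PZT-2 library (log2 fold change 0.53 and 0.55). The ubiquitin ligase ZNRF3 was not called. DKK2, DKK4, SFRP2, SFRP4, SFRP5, FRZB, WIF1, SOST, SOSTDC1, APCDD1 and RNF43 had no value, as was the case for RSPO1, RSPO2, RSPO3, RSPO4, LGR5, LGR6, LEF1 and SP5 of other roles.

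Inside the cell, 4 of 12 genes for Dishevelled and the destruction complex were called higher and 1 lower (41.7%, against 28.4% of all genes). CTNNB1, which encodes β-catenin, rose from 2014 and 2263 normalized counts in PANC-1 to 4956 and 5427 in PZT-2 (log2 fold change 1.28, edgeR adjusted p = 2.66e-04). AXIN1 (0.27, edgeR adjusted p = 0.0444) and CSNK1A1 (0.41, edgeR adjusted p = 0.00260) of the same role were also called higher. The AXIN1 call was lost under 10 of 15 alternatives and the CSNK1A1 call under 1. The Dishevelled genes divided, with DVL3 at 0.59 called higher, DVL2 at -0.51 called lower and DVL1 not called. Of 8 TCF/LEF genes and co-factors with values, 25% were called, against 28.4% of all genes. TCF7 rose by 0.68 and BCL9L fell by 0.27 on the log2 scale (edgeR adjusted p = 0.00309 and 0.0162), and 6 were not called. Leaving out either PZT-2 library ended the BCL9L call (edgeR adjusted p = 0.0507 and 0.141). Of 5 other commonly used target genes with values, CCND1, the cyclin D1 gene, rose by 0.66 (edgeR adjusted p = 0.00118) from 3735 and 4169 normalized counts to 6147 and 6367. TNFRSF19 was called lower (-1.81), though not with DESeq2 (adjusted p = 0.0574) or once either PZT-2 library was left out (log2 fold change -1.75 and -1.88). CD44, NKD1 and NKD2 were not called.

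**Figure D2:**
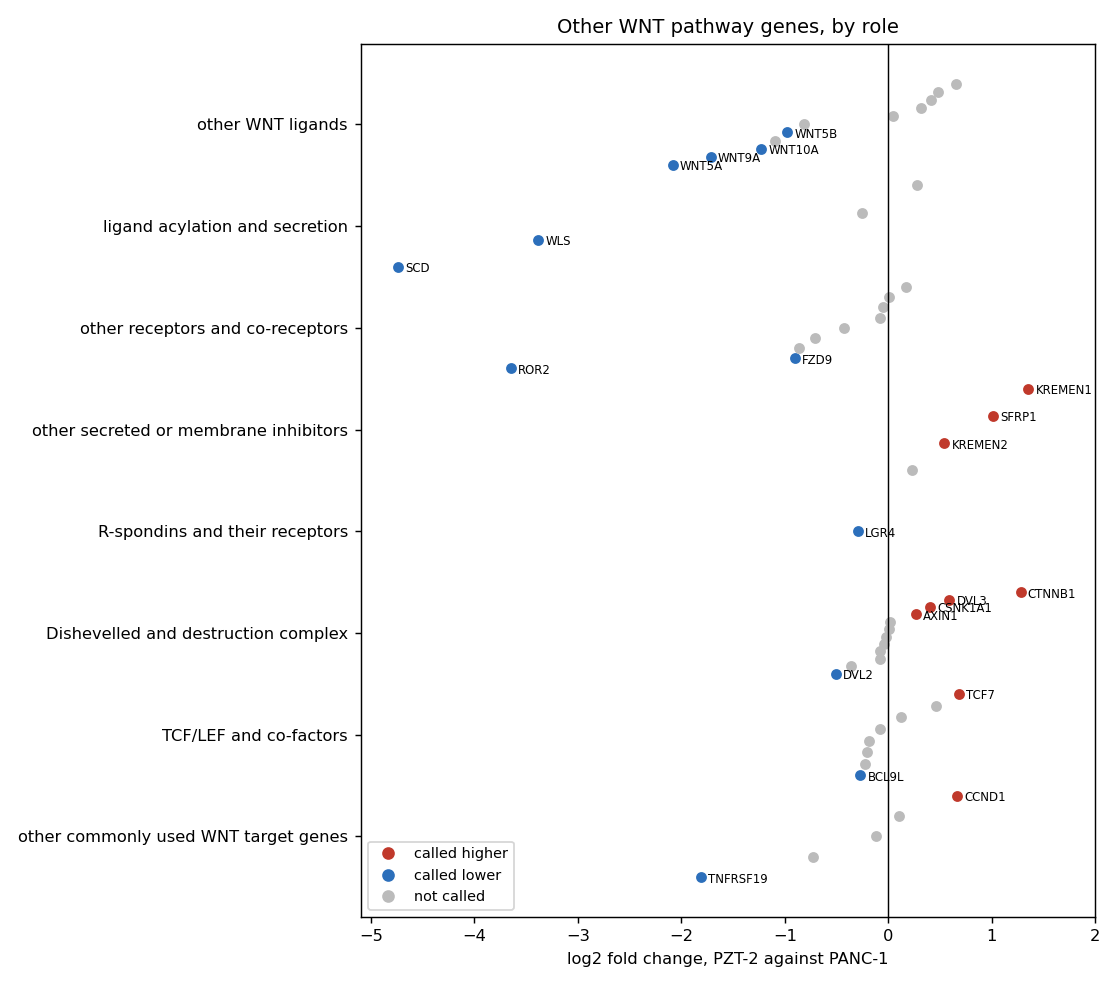
Log2 fold change of PZT-2 against PANC-1 for the 54 other WNT pathway genes tested, each a point, sorted by value within its role. Red points were called higher, blue points lower and gray points were not called, and the names are those of the called genes. Called ligands, WLS, SCD and ROR2 lie to the left, and SFRP1, the KREMEN genes and CTNNB1 lie to the right.

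RYK and CTNNB1 both lie on chromosome 3, where calls upward in PZT-2 were frequent. Among 811 other tested genes of chromosome 3 the median log2 fold change was 0.43, with 48.3% called higher and 2.47% lower. The 20 tested genes nearest to RYK, 10 on each side in RefSeq order, had a median of 0.07, with 6 called higher and 1 lower, and 17 of them changed by less than RYK or downward. The 20 genes nearest to CTNNB1 had a median of 0.63 with 7 called higher, and all 20 lay below CTNNB1. The part of the chromosome in either result was not tested.

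For the other members the medians of the chromosome were between -0.06 and 0.12. FZD2 lay below 19 of its 20 neighbours, whose median was 0.10. FZD6 and DKK1 also lay below 19 of 20, with neighbour medians of 0.13 and -0.15, and FZD7 below 17 of 20, with a neighbour median of -0.08. DKK3 was in the middle of its neighbours, 7 of which were called lower, with a median of -0.13.

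Reads that match more than 1 gene could enter these sums. Among words of 31 bases in GENCODE 29 transcripts, 7.20% of those of FZD2 and 3.08% of those of FZD7 also occur in another gene, 73 of them shared between FZD2 and FZD7. For RYK the share was 9.76%, all of it in the pseudogene RYKP1, which has no value in the table. The share was 0% for FZD6, DKK1 and DKK3. For AXIN2 it was 25.3%, with 1290 of its 1298 shared words in the gene AC004805.1. All these shares are of GENCODE 29, whereas kallisto was run on RefSeq transcripts, so they do not give the ambiguous share of the counts. FZD6 overlaps the long non-coding gene LOC105369147, which had between 8 and 14 counts in any library. Whether kallisto was run with the strand of the reads is not given in the sources used here.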

How the data were processed

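RNA-seq libraries of PANC-1 and of the KD clone PZT-2 were compared, 2 of each, grouped by the cell line in the labels. The authors used Trim Galore 0.4.1 for trimming, kallisto 0.43.0 to quantify RefSeq transcripts and sleuth 0.29.0 to export the tables, and the submitters' processing notes name hg19. The deposited estimated counts carried 1 factor for each library (1.16, 0.935, 1.03 and 1.01). Dividing by it made 49.3% to 50.1% of values between 0.5 and 30 of single-transcript genes whole to within 0.01, against 0.634% to 2.71% as deposited. The design assumed the counts as deposited, which were run as an alternative. TPM values were taken as deposited, carry such a factor too and sum to 940619 to 1000097 in a library. Columns of the authors' own comparison (effect sizes, p-values and q-values of sleuth) were not used.

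Counts were rounded and summed by the symbol in the authors' table or, for 3925 transcripts, by their accession in RefSeq (GRCh38.p14), which added 1 transcript each to DKK3 and AXIN2. The 103 unnamed transcripts, with 0.0466% of the counts, were left out, and 0 columns belonged to other samples. A gene or transcript needed 5 counts or more in 2 libraries or more and was tested with edgeR 4.0.16 in R 4.3.3 (TMM factors, quasi-likelihood test, Benjamini-Hochberg adjustment over all features), a script that was first tested on simulated data. Alternatives were RLE size factors, the version 4 estimate of edgeR, 2 other filters, DESeq2 1.42.0, limma-trend (limma 3.58.1) on log2(TPM + 1) and log2(TPM + 0.1), the most abundant transcript alone, the replicate block, each library left out and, added after the data were seen, transcripts with a symbol in the table alone.

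The 10 members, the pathway list and the markers were chosen with earlier results of these data known. Named were all members, the targeted genes, genes without a value, and in each role the 2 called genes that changed most among those whose mean normalized count reached 100. Other pathway genes, ROR2 among them, were named after their values were seen. GENCODE 29 and RefSeq sequences are of GRCh38, not the build of the files.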

Additional observations from a re-analysis of the deposited data

How the results depend on the processing

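The members, the counts of calls and, added after the data were seen, the targeted genes and the 21 called genes of the pathway list were recomputed under 15 alternatives, and the DKK3 transcripts under 10. Medians by chromosome, shares, marker sums and marker calls were not recomputed. Of the 21 pathway genes, 12 were called wherever they had a value, and AXIN1 lost its call most often (10 of 15, adjusted p up to 0.223). RYK, FZD2 and DKK1 were called under all 15 and kept their direction. Leaving out each library in turn gave 1 to 2 of the 10 genes called higher and 2 to 5 called lower, 1996 to 4647 of all genes called, and 7 to 15 of the other pathway genes called lower. The lowest counts came from leaving out PZT-2 replicate 2 (2 members lower and 1996 genes) or PZT-2 replicate 1 (7 other pathway genes lower and 2429 genes), and the highest without PANC-1 replicate 1 (4647 genes), where the lone library of a line was assumed to vary like the other pair. The 2 members called higher without PANC-1 replicate 2 were RYK and LRP5. With each gene reduced to its most abundant transcript, 2134 genes and 5 other pathway genes were called (higher, for the latter), and DKK3 turned from -0.18 to 0.47, the value of NM_013253. For NM_015881 of DKK3 the log2 fold change was -0.78 when PZT-2 replicate 2 was left out and 0.0376 without the other. The deviations of replicates 1 of both lines had a correlation of -0.0202 over 15101 genes. A single value over all genes cannot exclude a shared step that affects some of them, and the labels give only the replicate number. With the replicate block 1 member was called higher, 4 lower and 3734 genes in all. No alternative moved the median of all genes by more than 0.01. AXIN2 gave no value with at least 10 counts in every library. Precision is limited by 2 libraries a line and, for AXIN2, by counts of 3 to 23.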
